A study of Mus musculus with 6 samples.

Results

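Gpam and 9 further genes that build, store, break down or export triglyceride were followed in mouse liver under endotoxin. The members were the rows of the deposited expression table whose symbol was Gpam, Agpat2, Lpin1, Lpin2, Dgat1, Dgat2, Pnpla2, Pnpla3, Plin2 or Mttp, 10 of 19613 rows, and all 10 passed the filter on low values that left 9218 genes. The set was chosen by the scaled KO minus WT differences of these same libraries together with the genes' known roles, so those differences are a description. Where the text says whether a member passed the limma threshold, that is not read as support. The groups were 3 libraries from knockout mice (KO) and 3 from wild-type mice (WT). All animals carried the same treatment, lipopolysaccharide (LPS, a bacterial endotoxin) injected intraperitoneally at 15 mg/kg, and livers were taken after 6 h. The labels name no strain, age or sex and do not say that each library is a different mouse, so errors measure the spread between these libraries. Without untreated livers, a level cannot be read as a response to LPS.

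Triglyceride is assembled on a glycerol phosphate backbone. An acyltransferase adds the first fatty acid, another adds the second to give phosphatidic acid, a lipin removes the phosphate to leave diacylglycerol, and a diacylglycerol acyltransferase adds the last fatty acid. In hepatocytes the product is kept in droplets coated by perilipins, released again by lipases, or loaded onto apolipoprotein B for secretion. Of the 10 genes, 6 code for assembly enzymes, 2 for proteins of the patatin-like lipase family, 1 for a droplet coat and 1 for the lipoprotein loading factor, so the set is wider than assembly alone.

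The proximal promoters of Gpam, Agpat2 and Pnpla3 are shown because these genes had the lowest KO levels relative to WT. Each sequence holds the 250 bases before an annotated start, from RefSeq on GRCm38.p6, 5′ to 3′ on the strand of the gene; the authors' notes name mm39, so the positions do not refer to their build. Capitals mark matches on either strand to TCACNCCA (the core of the sterol response element), CCAAT (the box bound by NF-Y), CACGTG (an E-box) or TGACGTCA (the cAMP response element). These motifs were searched after the sequences had been seen, and none of the spelled motifs contains another.
Gpam, upstream start (chr19:55127239-55127488, minus strand): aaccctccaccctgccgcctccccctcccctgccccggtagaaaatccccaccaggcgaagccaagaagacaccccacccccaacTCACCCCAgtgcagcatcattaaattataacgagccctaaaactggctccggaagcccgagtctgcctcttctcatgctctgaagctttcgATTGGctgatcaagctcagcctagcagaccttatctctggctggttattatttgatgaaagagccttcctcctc
Gpam, downstream start (chr19:55099478-55099727, minus strand): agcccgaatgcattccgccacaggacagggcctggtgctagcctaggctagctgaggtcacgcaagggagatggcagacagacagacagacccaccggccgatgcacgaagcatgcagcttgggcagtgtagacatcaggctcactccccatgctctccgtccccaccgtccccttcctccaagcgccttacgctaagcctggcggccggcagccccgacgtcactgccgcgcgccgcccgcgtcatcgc
Agpat2 (chr2:26604418-26604667, minus strand): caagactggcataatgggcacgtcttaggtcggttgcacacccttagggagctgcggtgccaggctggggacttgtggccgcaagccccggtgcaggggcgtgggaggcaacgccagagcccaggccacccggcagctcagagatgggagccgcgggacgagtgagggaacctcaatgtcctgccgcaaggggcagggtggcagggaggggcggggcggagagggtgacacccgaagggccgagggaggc
Pnpla3 (chr15:84167566-84167815, plus strand): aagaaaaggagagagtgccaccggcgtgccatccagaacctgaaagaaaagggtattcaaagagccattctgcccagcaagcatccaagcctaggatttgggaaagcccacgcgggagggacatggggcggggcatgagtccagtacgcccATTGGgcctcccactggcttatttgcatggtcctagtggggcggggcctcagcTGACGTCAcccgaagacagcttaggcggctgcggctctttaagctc

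The upstream Gpam window held 1 TCACNCCA match, beginning 165 bases before the start, and 1 inverted CCAAT box, beginning 74 bases before it. The Pnpla3 window held an inverted CCAAT box at 99 bases and a cAMP response element at 46 bases before the start. The downstream Gpam window and the Agpat2 window held none of the 4 motifs. Among 32851 promoter windows of the same length, 3.67% held TCACNCCA, 33.8% CCAAT, 6.02% CACGTG and 1.55% TGACGTCA. Of the 10 genes, 8 had an entry in the promoter table, and TCACNCCA occurred in no other member's window. The letters are a description of the reference sequence; no binding was measured.

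The libraries differed in scale in a way that touches every value below. The deposited values are FPKM (fragments scaled to gene length and to a total for each library). As deposited, the median log2 difference over the 9218 tested genes was 0.45 higher in KO. Values were therefore divided by median-of-ratios factors, which brought that median to 0.00613, and levels are these scaled FPKM unless the deposited values are named. Whole reads recovered from the FPKM steps came to 26303150 to 44682659 per library. In KO replicates 1 to 3 they were 34804393, 35298361 and 44682659, while the totals implied by the deposited FPKM were 35400140, 29039160 and 34309950. In WT replicates 1 to 3 they were 28645121, 34548154 and 26303150, with implied totals of 37973280, 45428820 and 26864710. The implied totals therefore did not follow the recovered reads, and the reason was not tested. Differences are on the log2(scaled FPKM + 1) scale, on which low genes appear to change less than they did, with the standard error of the limma fit. After scaling, 104 of the 9218 genes (1.13%) passed a limma Benjamini-Hochberg adjusted p of 0.05, 56 lower in KO (0.608%) and 48 higher (0.521%). The groups did not overlap for 9.06% of tested genes in the lower direction and 10.7% in the higher.

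Summed hepatocyte markers (6 of 6 genes measured) ranged from 18981 to 23229 scaled FPKM in KO and from 21378 to 27378 in WT, so the ranges overlapped. The adipocyte markers, relevant because fat tissue expresses the same pathway, summed to 7.64 to 11.7 in KO and 6.53 to 10.2 in WT over the 4 of 6 genes measured. Fabp4 made up most of that sum and was even between the genotypes (difference 0.03 ± 0.18), while Cfd, below the filter, stood at 0.618, 0.747 and 1.86 in KO and 0.297, 0.195 and 0.164 in WT. Adipoq, the defining adipocyte gene, was listed at 0 in 5 of the 6 libraries and at 0.0384 in KO replicate 2. Summed Kupffer cell and macrophage markers lay at 24.5 to 40.0 in KO and 25.1 to 38.2 in WT (6 genes), neutrophil markers at 111 to 114 and 104 to 159 (5 genes), and sinusoidal endothelial markers at 12.5 to 19.2 and 15.1 to 24.7 (5 genes). Stellate cell markers summed to 22.03 to 22.9 in KO and 22.2 to 30.2 in WT (5 genes), cholangiocyte markers to 7.43 to 14.1 and 11.5 to 16.8 (4 genes), and lymphocyte markers to 0.993 to 1.27 and 0.524 to 1.15 (4 genes). Single markers separated where the sums overlapped. Of the 39 marker rows, 4 lay wholly below WT in KO and 3 wholly above. Among all tested genes 9.06% lay wholly below and 10.7% wholly above, so nothing is read from these counts. The markers wholly below were the stellate cell gene Lrat (0.302 ± 0.0441 in KO and 1.44 ± 0.491 in WT, below the filter), the Kupffer cell gene Timd4 (0.881 ± 0.0353 and 1.83 ± 0.311, limma adjusted p = 0.0588), the sinusoidal gene Stab2 (1.65 to 2.89 and 3.81 to 4.35, limma adjusted p = 0.0870) and the hepatocyte gene Serpina1c (538 ± 58.3 and 688 ± 51.6, limma adjusted p = 0.354), where errors are SDs over n = 3. Those wholly above were Cfd, Col1a1 (1.02 ± 0.315 and 0.611 ± 0.0880, below the filter) and the cholangiocyte gene Epcam (1.31 ± 0.135 and 0.809 ± 0.0580, limma adjusted p = 0.175). None of the markers tested passed between genotypes after scaling, and the part of cell composition in the values below was not tested. In bulk tissue, fewer cells of a type and less RNA per cell cannot be told apart.

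Plin2 and Dgat2 were the most abundant of the 10 genes and Lpin2 and Pnpla3 the least, as levels per length. Plin2 averaged 77.3 scaled FPKM over the 6 libraries and Dgat2 66.3, and their ranges overlapped. Agpat2 (36.9), Pnpla2 (22.7) and Mttp (15.4) followed, each range separate from that of the gene above it. From Mttp down, every neighbour overlapped the next: Lpin1 (13.3 on average), Dgat1 (8.63), Gpam (4.64), Pnpla3 (1.96) and Lpin2 (1.93). The order therefore separates the upper genes and leaves the lower 6 as a chain of overlapping ranges.

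**Figure D1:**
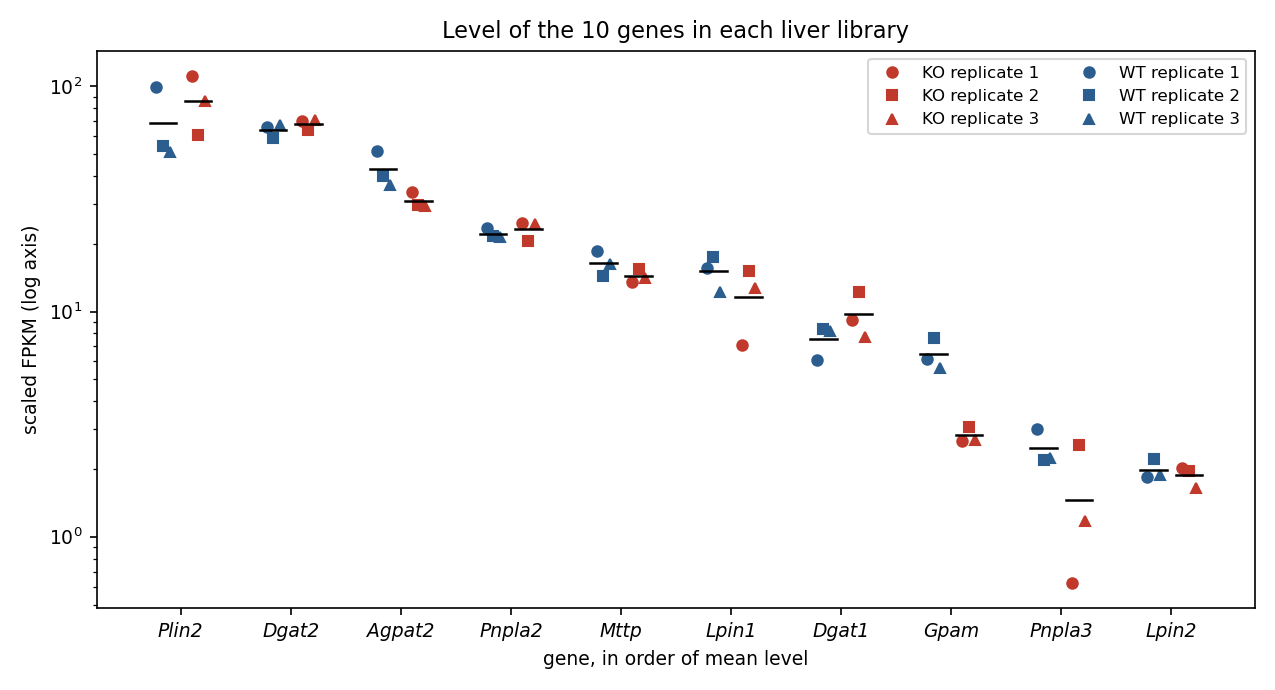
Scaled FPKM (log axis) of the 10 genes in each library, ordered by mean level; red points are KO, blue points WT, marker shapes give the replicate and black bars the group mean. Gpam shows a clear gap between 2.67 to 3.08 in KO and 5.62 to 7.65 in WT, while Lpin1 and Pnpla3 have a low point in KO replicate 1.

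Gpam codes for the mitochondrial glycerol-3-phosphate acyltransferase, which commits glycerol phosphate and acyl-CoA to glycerolipid synthesis. It stood at 2.67, 3.08 and 2.70 scaled FPKM in KO replicates 1 to 3 and at 6.14, 7.65 and 5.62 in WT replicates 1 to 3. Every KO library lay below every WT library, and the KO values were packed more closely than the WT values. The means were 2.82 ± 0.230 in KO and 6.47 ± 1.05 in WT (SD, n = 3), a KO level 0.435 times that of WT and a log2 difference of -0.96 ± 0.13 (SE). The values rest on 623, 775 and 860 reads in KO and 1196, 1699 and 993 reads in WT over 6664 bases of exon. As deposited the gap was also there, with 2.64, 4.005 and 3.76 FPKM in KO and 4.73, 5.61 and 5.55 FPKM in WT. In the deposited values 0.575% of tested genes lay wholly below WT and 47.3% wholly above. Gpam was the 1 member of 10 past the adjusted threshold. Since the contrast chose the genes, nothing is read from that count or from the place of Gpam among the genes wholly below WT. Its difference was -0.93 both without KO replicate 1 and without KO replicate 3, and in either case it no longer passed.

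Since the ratio of a pair of genes within a library needs no scaling between libraries, Gpam was also set against its partners. Gpat4, the main acyltransferase of the endoplasmic reticulum for the same step, gave Gpam/Gpat4 ratios of 0.522, 0.732 and 0.541 in KO and 0.817, 1.38 and 0.966 in WT. Gpam was thus below Gpat4 in each KO library and on either side of it in WT. Gpam/Dgat2 was 0.0381, 0.0482 and 0.0382 in KO and 0.0928, 0.129 and 0.0832 in WT. Gpam/Mttp was 0.198, 0.199 and 0.193 in KO and 0.329, 0.531 and 0.347 in WT. The groups did not overlap in any of the 6 Gpam ratios drawn, to Gpat4, Gpat3, Agpat2, Dgat2, Pnpla2 and Mttp. All 6 share the Gpam values, which helped choose the set, so they are not separate results and are only described. The share of other gene pairs that separate was not computed. Of the summed FPKM of the 4 glycerol-3-phosphate acyltransferase genes, Gpam made up 29.0%, 37.6% and 30.4% in KO and 42.7%, 55.2% and 47.6% in WT.

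**Figure D2:**
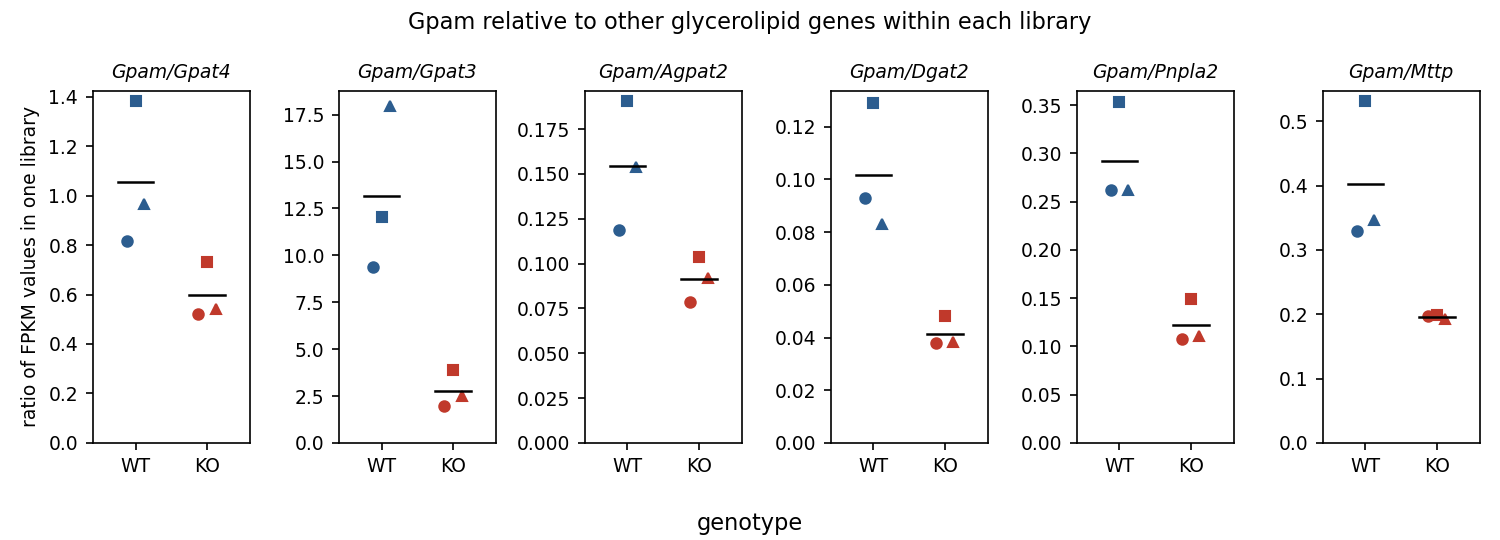
Ratio of deposited Gpam FPKM to that of 6 other genes in the same library, by genotype (1 point per library, marker shape by replicate, bar for the mean, each axis from 0). All KO points lie below all WT points in every panel; Gpam/Mttp averages 0.196 in KO and 0.402 in WT.

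Agpat2, which adds the second fatty acid to form phosphatidic acid, was the other member without overlap after scaling. It measured 33.9, 29.7 and 29.4 scaled FPKM in KO and 51.65, 40.1 and 36.6 in WT. The gap between KO replicate 1 and WT replicate 3 was small beside the spread of the WT values. The means were 31.0 ± 2.51 and 42.8 ± 7.89 (SD, n = 3), a log2 difference of -0.44 ± 0.16. In the deposited values the groups overlapped and the difference was 0.11, so its direction rests on the scaling. Within libraries, Agpat2/Dgat2 was 0.484, 0.465 and 0.414 in KO and 0.780, 0.677 and 0.542 in WT, again without overlap.

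The lipins dephosphorylate phosphatidic acid; lipin 1 also acts as a transcriptional coactivator in liver. Lpin1 stood at 7.13, 15.1 and 12.7 scaled FPKM in KO and 15.6, 17.4 and 12.2 in WT. KO replicate 1 was the lowest library, and the other KO values lay within the WT range. Its log2 difference was -0.39 ± 0.25 after scaling and 0.13 as deposited, and it was -0.10 without KO replicate 1 and -0.59 without KO replicate 2. Lpin2 was close to even, with 2.02, 1.96 and 1.65 in KO and 1.84, 2.21 and 1.88 in WT (difference -0.05 ± 0.11, and 0.01 without KO replicate 3 or WT replicate 2). The Lpin1/Lpin2 ratio was 3.53 in KO replicate 1 and 6.47 to 8.49 in the other 5 libraries.

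Dgat1 and Dgat2 code for unrelated enzymes that both complete triglyceride. Dgat2 was nearly constant at 70.02, 64.0 and 70.8 scaled FPKM in KO and 66.2, 59.2 and 67.5 in WT, with a log2 difference of 0.09 ± 0.13. Its highest library was 1.197 times its lowest, the narrowest spread of the 10 genes. Dgat1 measured 9.16, 12.3 and 7.69 in KO and 6.08, 8.37 and 8.19 in WT (difference 0.31 ± 0.18), with overlapping groups. That difference was 0.15 without KO replicate 2 and 0.19 without WT replicate 1. As deposited, all KO values of both genes lay above all WT values, as they did for 47.3% of all tested genes. The deposited differences were 0.64 for Dgat2 and 0.81 for Dgat1, beside the median of 0.45 for all tested genes.

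Pnpla2, adipose triglyceride lipase, starts the breakdown of stored triglyceride, and Pnpla3 codes for a related droplet protein. Pnpla2 lay between 20.6 and 24.7 scaled FPKM in all 6 libraries, a difference of 0.06 ± 0.13. Pnpla3 stood at 0.626, 2.55 and 1.18 in KO and 3.01, 2.19 and 2.24 in WT. Its highest library was 4.80 times its lowest, the widest spread of the 10 genes, and KO replicate 2 fell among the WT values. The log2 difference was -0.57 ± 0.25, with means of 1.45 ± 0.991 and 2.48 ± 0.458 (SD, n = 3); it was -0.31 without KO replicate 1 and -0.86 without KO replicate 2. KO replicate 1 rests on 34 reads (exact Poisson 95% interval 23.5 to 47.5), and the other libraries on 87 to 149, so counting error is larger here than for any other member.

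Plin2, the coat protein of hepatocyte lipid droplets, stood at 111, 61.0 and 86.05 scaled FPKM in KO and 99.8, 54.4 and 51.2 in WT. In each genotype replicate 1 was the highest, and the log2 difference of 0.35 ± 0.29 was of the size of its error. Leaving out 1 library moved it to 0.15 (KO replicate 1), 0.57 (KO replicate 2), 0.65 (WT replicate 1), 0.22 (WT replicate 2) or 0.18 (WT replicate 3). Mttp, the microsomal transfer protein that loads lipid onto apolipoprotein B, measured 13.5, 15.5 and 14.0 in KO and 18.7, 14.4 and 16.2 in WT (difference -0.18 ± 0.13, but -0.09 with WT replicate 1 left out). Both genes had overlapping groups. As deposited, Plin2 differed by 0.90 with all KO values above WT, as for 47.3% of all tested genes, and Mttp by 0.35 with overlap.

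Set side by side, 6 of the 10 differences were negative and 4 positive after scaling, with a median of -0.11 against 0.00613 over all tested genes. The groups overlapped for 8 of the 10; 19.7% of all tested genes had no overlap in 1 direction or the other. As deposited, Gpam alone lay wholly below WT, 5 members lay wholly above and 4 overlapped. Among all tested genes 0.575% lay wholly below and 47.3% wholly above, so the 5 are near the general share. The 4 members past the threshold as deposited, Dgat1, Dgat2, Pnpla2 and Plin2, stood beside 29.3% of all tested genes. The lowest library was KO replicate 1 for 4 genes, Gpam, Lpin1, Pnpla3 and Mttp.

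**Figure D3:**
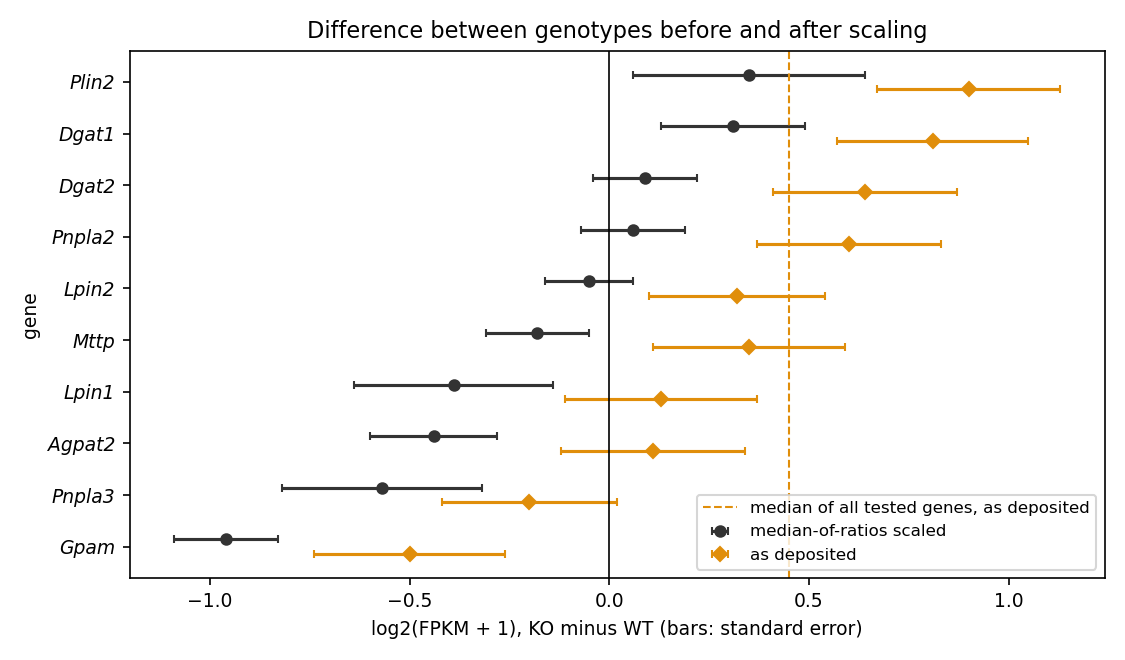
Difference between KO and WT in log2(FPKM + 1) for each of the 10 genes, with standard errors, after median-of-ratios scaling (black circles) and as deposited (orange diamonds); the dashed line is the median of all tested genes as deposited, 0.45. Gpam is the lowest on both scales, at -0.96 and -0.50.

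The other genes of triglyceride handling gave no call in either direction. Of 81 genes listed in 7 roles, 79 were in the table and 65 were tested; with limma, 0 passed after scaling, beside 1.13% of all tested genes, 9 had an unadjusted p under 0.05 (13.8% of all tested genes did), and limma-voom on the recovered reads also called 0. The lists were chosen with earlier results of these data known, and with so low a share over all tested genes nothing is read from the 0. The median log2 difference of the 65 genes was -0.06, with 25 positive and 40 negative values. These tallies rest on the scaling, since 62 of the 65 differences were positive in the deposited values. The remaining 14 in the table were below the filter, among them G0s2, the inhibitor of adipose triglyceride lipase, whose name is given after its values were seen. G0s2 measured 0.851, 1.16 and 0.673 scaled FPKM in KO and 0.471, 0.207 and 0.346 in WT, and the groups did not overlap. These values rest on only 26, 38 and 28 reads in KO and 12, 6 and 8 in WT. Of all tested genes, 10.7% lay wholly above WT, so nothing is read from the gap.

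Among the other acyltransferases and enzymes of phosphatidate use, 13 of 18 were tested, 7 with positive and 6 with negative differences (median 0.10). Plpp3, a lipid phosphate phosphatase, had the lowest p of the role and stood at 8.70 ± 1.27 in KO and 13.8 ± 1.40 in WT (SD, n = 3; difference -0.62 ± 0.14, limma adjusted p = 0.0837). Ctdnep1, the phosphatase that activates lipins, and Plpp5 were the most abundant besides it, at 19.9 and 16.03 in KO and 17.1 and 12.3 in WT. Of the isoenzymes of Gpam, named after their values were seen, Gpat4 lay wholly below WT in KO after scaling, as Gpam did, and Gpat3 wholly above. Gpat4 averaged 4.77 ± 0.488 in KO and 6.29 ± 1.07 in WT (-0.33 ± 0.14, limma adjusted p = 0.332) and Gpat3 1.07 ± 0.275 and 0.534 ± 0.192 (0.44 ± 0.14, limma adjusted p = 0.225). As deposited, the Gpat4 groups overlapped with a difference of 0.14, so its direction rests on the scaling, while Gpat3 stayed wholly above WT (0.68). After scaling, 9.06% of all tested genes lay wholly below WT and 10.7% wholly above.

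Fatty acid uptake and activation had 9 of 9 genes tested, 3 positive and 6 negative (median -0.11). The cytosolic fatty acid carrier Fabp1 averaged 4269 ± 592 scaled FPKM in KO and 4654 ± 965 in WT, and the transporters Slc27a2 and Slc27a5 averaged 152 and 92.5 in KO and 114 and 106 in WT. Acsl3, an acyl-CoA synthetase of lipid droplets, stood at 2.98 ± 0.477 and 1.97 ± 0.0725 (0.42 ± 0.12, limma adjusted p = 0.153). Of the genes that supply glycerol 3-phosphate, 4 of 7 were tested, all with negative differences (median -0.04): the glycerol channel Aqp9 (-0.02 ± 0.13), glycerol kinase Gk (-0.05 ± 0.12), Gpd1 (-0.04 ± 0.18) and Gpd2 (-0.27 ± 0.17).

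Lipases and their regulators had 12 of 14 genes tested, 4 positive and 8 negative (median -0.14). The carboxylesterases Ces3a and Ces3b and the arylacetamide deacetylase Aadac were the most abundant, with differences of -0.17 ± 0.19, -0.28 ± 0.22 and 0.23 ± 0.25. Ces1g, another carboxylesterase, stood at 43.6, 20.4 and 42.0 scaled FPKM in KO and 17.3, 13.7 and 7.46 in WT. The groups did not overlap, and the difference of 1.39 ± 0.34 did not pass (limma adjusted p = 0.111), although it did without KO replicate 2 (1.73, adjusted p = 0.0439) and in the deposited values (1.92). Carboxylesterases are close paralogs, and the treatment of reads shared between them is not stated by any source used, which leaves their values uncertain.

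Droplet proteins had 10 of 13 genes tested, 6 positive and 4 negative (median 0.18). The most abundant were Hsd17b13 (0.45 ± 0.24, and 0.76 without WT replicate 1, where it passed), Hsd17b11 (-0.13 ± 0.19) and Fitm1 (0.45 ± 0.22). Plin5, which links droplets to mitochondria, averaged 2.26 ± 0.406 in KO and 3.44 ± 0.967 in WT (-0.43 ± 0.17, limma adjusted p = 0.309). Lipoprotein assembly and export had all 8 genes tested, 4 in each direction (median -0.02): Apob (-0.07 ± 0.18), the transfer protein's partner subunit P4hb (0.05 ± 0.15) and Apoc3 (-0.32 ± 0.17).

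Regulators had 9 of 12 genes tested, 1 positive and 8 negative (median -0.24), but all 9 were positive as deposited. Srebf1, whose product drives lipogenic genes under insulin, stood at 5.12, 6.08 and 5.16 scaled FPKM in KO and 7.003, 8.81 and 6.11 in WT. The groups did not overlap, but KO replicate 2 and WT replicate 3 were nearly equal, and the difference of -0.35 ± 0.14 did not pass (limma adjusted p = 0.323; 0.13 as deposited). Mlxipl, which codes for the carbohydrate-responsive factor ChREBP, averaged 62.3 ± 24.8 in KO and 77.2 ± 29.8 in WT. Nr1h3, the liver X receptor alpha gene, averaged 17.7 ± 0.291 and 18.8 ± 3.38, and Insig1, a brake on SREBP processing, 64.1 ± 7.99 and 51.02 ± 2.59 (0.32 ± 0.14, limma adjusted p = 0.365).

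**Figure D4:**
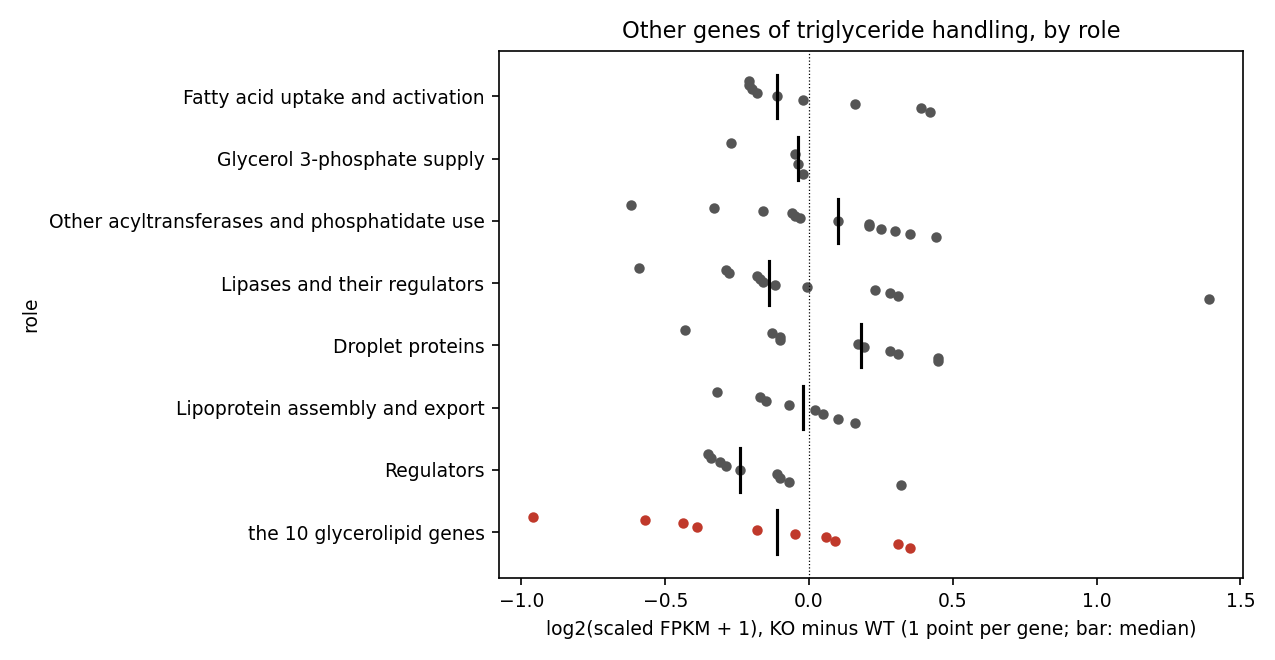
Difference between KO and WT in log2(scaled FPKM + 1) for the tested genes of 7 roles in triglyceride handling (grey, 1 point per gene) and for the 10 genes described above (red), with a bar at each median. The medians run from -0.24 for the regulators to 0.18 for the droplet proteins, and Ces1g, at 1.39, lies apart.

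Profiles over the 6 libraries were compared with that of Gpam by Pearson r on log2(scaled FPKM + 1). The genes compared were tested genes with a mean of at least 1 scaled FPKM, leaving out symbols of predicted genes, clones and pseudogenes. The 5 most like Gpam were Coq8a (0.998), Slc6a9 (0.997), Hdhd3 (0.992), Gstt1 (0.990) and Cyp2c37 (0.990). Coq8a belongs to coenzyme Q synthesis, Slc6a9 is a glycine transporter, Gstt1 a glutathione transferase and Cyp2c37 a cytochrome P450. Coq8a stood at 5.85, 6.27 and 5.40 scaled FPKM in KO and 12.2, 15.6 and 11.2 in WT, with WT replicate 2 highest as for Gpam. A gap between the genotypes alone gives a high r over so few libraries, and 77 of the genes compared exceeded 0.95. None of the 5 is a gene of the lists above.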

How the data were processed

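RNA sequencing of 6 liver libraries was deposited by the authors as 1 table of FPKM values for 19613 rows. The submitters' processing notes list the aligner HISAT2 2.0.5 and both mm39 and hg38, without saying which build served for what. Counting tool, annotation and strand setting were not given in the sources used here. Columns were matched to samples by library name. Genes with at least 1 FPKM in at least 3 libraries (9218) went into a limma fit (version 3.58.1, R 4.3.3, eBayes with trend, 2-sided, genotype only) on log2(FPKM + 1) after division by median-of-ratios factors over genes above 0 in every library, with Benjamini-Hochberg adjustment. The fit was also run on simulated data with independent normal noise. That run held no scale difference and no spread shared by same-numbered libraries, so it says nothing about either. Reads were recovered as the smallest whole numbers that give a row's values in all libraries to within 0.0001 reads. Where a multiple of these gave the GENCODE M21 exonic length, that multiple was taken. Of the 18588 rows with such a length, 17026 matched it. Whole numbers were found for all 19613 rows, of which 412 were 0 in every library. Rows without a match keep the smallest whole numbers, so their reads, and the summed reads per library, may be too low. Intervals cover counting error only. FPKM per length was used to compare genes.

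The members and lists were chosen with earlier results of these data known. Named pathway genes were the 3 most abundant and the lowest p of each role and any called gene; others are said to be named after their values were seen. Aqp3 and Plin1 of the pathway lists and Lep and Plin1 of the markers were not analysed here. The targeted gene is not reported here. Alternatives changed scaling, pseudocount, filter, variance model, test, replicate block and each library left out.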

Additional observations from a re-analysis of the deposited data

How the results depend on the processing

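The Gpam difference kept its direction under every alternative in which it was tested, from -1.19 (limma-voom) to -0.50 (values as deposited). Every alternative reused the contrast that chose the set, so this shows dependence on processing only and is no independent support. It did not pass in the deposited values (-0.50) or with no filter (-0.96), and under the filter on a mean of 5 FPKM it was left out. Leaving out each library gave -1.04 to -0.86; it did not pass without KO replicate 1 or KO replicate 3. Members that passed numbered 1 at first, 4 as deposited (Dgat1, Dgat2, Pnpla2 and Plin2, all higher), 0 with no filter, 0 with a mean of at least 5 FPKM and 0 to 1 with a library left out. Other pathway genes that passed numbered 0 at first, 20 as deposited, 2 with the replicate block (Ces1f and Plpp3) and 0 to 1 with a library left out. All genes that passed numbered 104 at first, 2703 as deposited, 31 with no filter, 64 with a mean of at least 5 FPKM, 290 with the replicate block and 21 to 125 with a library left out (21 without KO replicate 1, 56 without KO replicate 3, 58 without WT replicate 2 and 63 without WT replicate 3). Factors taken over the tested genes only, an alternative chosen after seeing the data, gave 99 genes and -0.97 for Gpam. Same-numbered libraries had correlated deviations of 0.329, 0.473 and 0.0181 for replicates 1 to 3, and 3 of the 6 libraries correlated best with their own number. The numbers were not taken as pairs, so the errors given above include any spread that same-numbered libraries share. With the replicate block Gpam was -0.96 ± 0.10 (SE). The cause of these changes was not tested. Depth limits Pnpla3 most, with 34 to 149 reads per library.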
